A study of Mus musculus with 10 samples.

Results

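The 31 genes described here encode the proteins that bring glucose into the heart muscle cell, split it to pyruvate and lactate, and store it as or release it from glycogen. They were taken by name, for their place in these pathways, from the 11777 genes to which the deposited transcripts could be assigned. All 31 were in the table, with 94 listed transcripts between them, and all 31 passed the filter on low values, a mean of at least 1 FPKM (fragments per kilobase of transcript, scaled to the fragments of the library) in 1 of the groups. The RNA was that of myocardium, from C57BL/6 mice. There were 5 libraries labelled NPRA-/- (217, 227, 231, 240 and 241), from mice in which natriuretic peptide receptor A was deleted in the myocardium, and 5 libraries labelled NPRA+/+ (228, 230, 242, 243 and 255), from littermates that kept the receptor. Both groups share strain and tissue; the sources used here give no age, sex, treatment, deleted stretch, Cre line or promoter, and whether each library came from 1 mouse is read only from the numbers in the labels. Values of a group are given below in the order of these numbers.

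Glycolysis turns glucose into pyruvate in the cytosol, and lactate dehydrogenase interconverts pyruvate and lactate. A healthy adult heart burns mainly fatty acids and takes up glucose largely through the insulin-responsive transporter GLUT4, while glycogen, a branched glucose polymer, is a reserve that phosphorylase opens when energy demand rises. Many of the steps are served by several paralogous enzymes. One is typical of striated muscle or heart and another of most other tissues, so the balance between them is a feature of the cell types in a sample.

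Pyruvate kinase and phosphoglycerate mutase show this balance at the level of sequence. Pkm (chromosome 9, 59656368 to 59679375, plus strand, GRCm38/mm10) yields the M1 form of adult muscle or the M2 form of many proliferating and non-muscle cells by including 1 of a pair of mutually exclusive coding exons. Both exons are 167 bases long, and 64 of these bases differ; capitals mark the differing bases. The M1 exon lies at chr9:59675029-59675195 and the M2 exon at chr9:59675568-59675734, both on the plus strand (GENCODE vM21).
Pkm M1 exon: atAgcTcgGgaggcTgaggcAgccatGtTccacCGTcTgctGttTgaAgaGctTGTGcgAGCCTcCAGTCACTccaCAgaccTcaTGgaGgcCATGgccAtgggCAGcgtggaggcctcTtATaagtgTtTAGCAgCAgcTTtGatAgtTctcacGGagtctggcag
Pkm M2 exon: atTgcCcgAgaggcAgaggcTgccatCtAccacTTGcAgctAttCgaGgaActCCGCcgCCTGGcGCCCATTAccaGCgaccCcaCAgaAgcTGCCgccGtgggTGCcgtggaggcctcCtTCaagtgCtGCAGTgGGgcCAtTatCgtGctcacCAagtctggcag

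The transcript with the M1 exon (ENSMUST00000163694.3) stood at 168, 157, 147, 151 and 147 FPKM in the NPRA-/- libraries and at 172, 144, 146, 141 and 165 FPKM in the NPRA+/+ libraries. The transcript with the M2 exon (ENSMUST00000034834.15) stood at 61.7, 75.8, 62.4, 58.5 and 75.3 FPKM in the NPRA-/- libraries, against 59.3, 59.9, 62.0, 67.0 and 65.2 FPKM in the NPRA+/+ libraries. The M1 form was thus the more abundant in all 10 libraries. It made up 69.8% ± 2.98 of both forms in the NPRA-/- libraries and 70.9% ± 2.37 in the NPRA+/+ libraries (mean ± SD of 5 libraries each; p = 0.516, exact permutation test, two-sided), and the groups overlapped.

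Phosphoglycerate mutase is encoded by Pgam2, the muscle gene, and Pgam1, the gene of most other tissues, and of the pairs compared here they stood farthest apart in level. The 250 bases before their RefSeq starts (GRCm38.p6) are shown because they also differ widely in CpG content, a property of promoters that is often high at genes used in all tissues. Capitals mark each CG. That of Pgam2 lies at chr11:5803797-5804046 on the minus strand and holds 1 CG, and that of Pgam1 lies at chr19:41911621-41911870 on the plus strand and holds 22.
Pgam2 upstream: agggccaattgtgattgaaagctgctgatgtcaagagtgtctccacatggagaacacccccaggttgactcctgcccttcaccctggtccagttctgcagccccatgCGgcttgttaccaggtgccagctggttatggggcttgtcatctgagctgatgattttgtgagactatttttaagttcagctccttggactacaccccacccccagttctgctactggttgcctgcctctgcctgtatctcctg
Pgam1 upstream: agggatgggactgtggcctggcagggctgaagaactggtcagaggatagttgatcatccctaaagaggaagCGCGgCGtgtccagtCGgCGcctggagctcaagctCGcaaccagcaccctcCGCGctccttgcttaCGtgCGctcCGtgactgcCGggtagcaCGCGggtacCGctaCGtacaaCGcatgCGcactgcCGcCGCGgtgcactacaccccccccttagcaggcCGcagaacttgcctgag

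A RefSeq promoter window of 300 bases, 250 before and 50 after the start, was matched for 30 of the 31 genes; Slc2a4 is named only. The 7 windows of muscle or heart paralogs had a median of 9 CG and the 9 windows of the other paralogs a median of 20.0, where all 32851 windows of the reference had a median of 7. Eno3, with 3 CG, and Pygm, with 4, were like Pgam2 in this, but Hk2, the muscle hexokinase, had 25 and Pfkfb1, set here among the other paralogs, had 2. The letters ACGTG, the core of the hypoxia response element, can also lie inside the E-box CACGTG. They were found on either strand in 14 of the 30 windows (46.7%), against 19.6% of all windows. These letters include a CG, and the 30 windows had a median of 20.5 CG, against 7 in all windows. The median GC content was 62.1% in the 30 windows and 52.7% in all. The part of CG content in the share of windows with ACGTG was not tested. A match to the MEF2 consensus, searched on both strands, was found in 1 of the 30 windows (3.33%), against 3.19% of all windows: CTATTTTTAA in Pgam2, at chr11:5803867-5803876, whose first base is 80 bases before the start. Such a match is a string of letters and was not tested as a binding site. The nearest RefSeq start was 6262 bases from the start of the most abundant Eno1 transcript and 620 bases from that of Eno3, so these windows need not be the promoters in use.

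The libraries were alike in the sum of their values and in the part of it that the 31 genes took, and the deleted gene did not check the labels. The sum of all deposited values was 430059 to 453122 FPKM, of which the 31 genes took 1.11% to 1.22% in NPRA-/- libraries and 1.12% to 1.16% in NPRA+/+ libraries. The sequencing depth is unknown. Npr1, which encodes the receptor, averaged 4.64 ± 0.492 FPKM under the label NPRA-/- and 4.68 ± 0.301 FPKM under the label NPRA+/+ (SD, n = 5 each; p = 0.857 by the exact permutation test), so every direction below is that of the library labelled NPRA-/- relative to the library labelled NPRA+/+. All 8 cardiomyocyte markers examined were present in every library. Atrial muscle varied between libraries of both groups: Myl7, an atrial myosin light chain, ran from 0 to 140 FPKM in NPRA-/- libraries and from 0 to 75.4 FPKM in NPRA+/+ libraries. In NPRA+/+ libraries 228, 243 and 255 other markers stood out. Library 228 had 240 FPKM of the smooth muscle gene Acta2, which was at 44.0 to 133 FPKM elsewhere. Myh11 (20.1 FPKM) and Tagln (14.0 FPKM) lay within the range of the other libraries in 228. Nppa, examined as an atrial marker, was at 804 FPKM in 243 and 236 to 448 FPKM elsewhere. Library 243 had a summed level of 803 FPKM over the 4 skeletal muscle markers in the table. The other 9 libraries lay between 413 and 533 FPKM. This excess lay in Acta1, at 440 FPKM in 243 and 72.4 to 228 FPKM elsewhere. In 243 Tnni2 (2.55 FPKM) and Mylpf (1.09 FPKM) lay within the range of the other libraries. Ckm was at 359 FPKM in 243 and at 302 to 357 FPKM elsewhere. Library 255 had 5.89 FPKM of the brown fat gene Ucp1, which was at most 0.0904 FPKM elsewhere. Results that change in direction without 243 and 255 are given below. Library 228 was left out only on its own, as was every other library.

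No gene of the pathway passed the genotype test. Differences were taken on the log2(FPKM + 1) scale as NPRA-/- minus NPRA+/+ and tested with limma, with Benjamini-Hochberg adjustment over all 10764 genes tested at 0.05. Of the 31 genes 0 were called, where 1 of all 10764 genes was (0.00929%), and 2 of 31 (6.45%) had an unadjusted p under 0.05, a share near the 5.52% of all genes. Both, Eno1 and Hk2, were lower in NPRA-/- libraries, the direction of most genes at that p: 4.13% of all genes were lower and 1.38% higher. The adjusted p of the 31 lay between 0.850 (Eno1) and 0.995 (Pgk1). No gene had groups of libraries that did not overlap, where 1.08% of all genes did. Slightly more members were higher than lower: 18 of 31 (58.1%) were higher in NPRA-/- libraries, against 39.4% of all genes, and the median difference was 0.024 over the 31 genes and -0.029 over all genes tested. The members' median was 0.059, with 21 higher and 10 lower, after median-of-ratios scaling, and -0.012, with 13 higher and 18 lower, without library 217.

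The precision of these differences was fair for most of the pathway. For 28 of the 31 genes the whole 95% interval lay within 0.5 on the log2 scale of 0, and for 18 it lay within 0.25. The point estimates ran from -0.27 (Stbd1) to 0.36 (Pfkfb2), and the wide intervals belonged to genes at low levels or with unstable transcript estimates: Pfkfb2 (-0.22 to 0.95), Pfkfb1 (-0.15 to 0.73) and Stbd1 (-0.58 to 0.046).

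**Figure D1:**
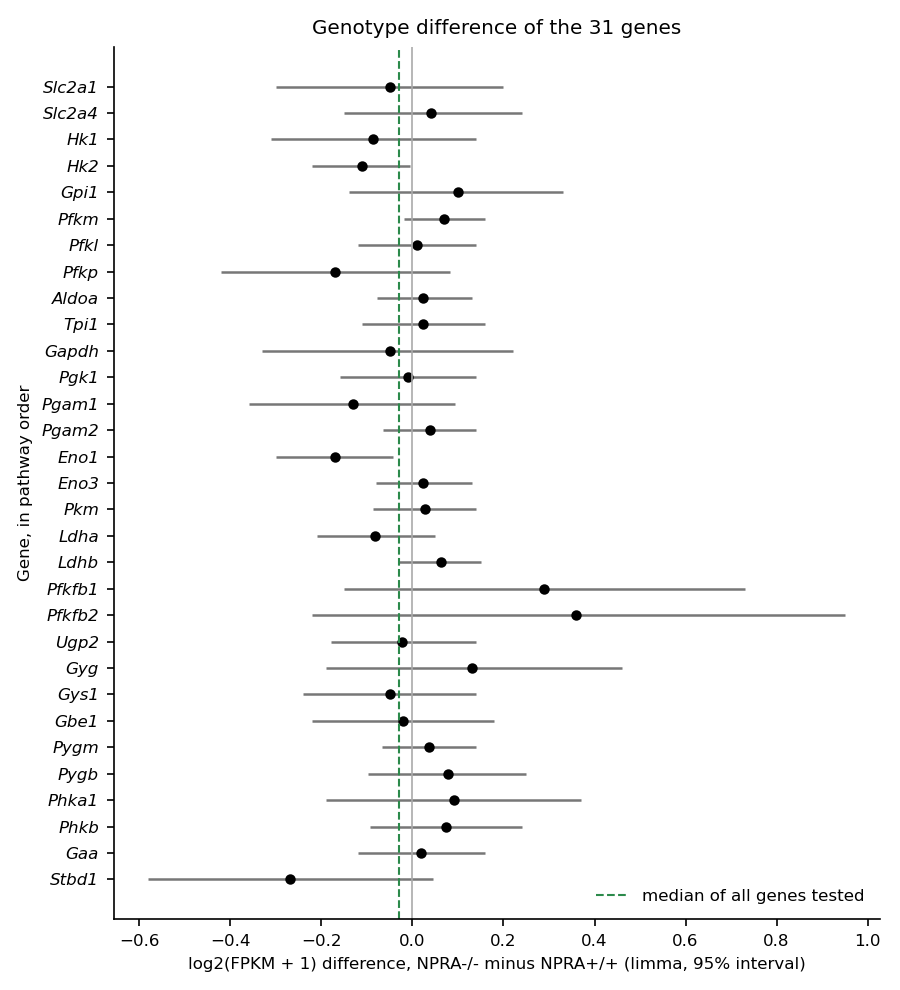
Genotype difference of each of the 31 genes on the log2(FPKM + 1) scale, NPRA-/- minus NPRA+/+, as points with 95% limma intervals; genes run down the page in pathway order, and the dashed line is the median of all genes tested, -0.029. The intervals of Hk2 and Eno1 leave out 0, and those of Pfkfb1, Pfkfb2 and Stbd1 are the widest.

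The levels themselves differed widely within the pathway and were steady between libraries. On the FPKM scale, which is per length, 12 of the 31 genes averaged over 100 FPKM across the 10 libraries and 4 averaged under 10 FPKM. Pgam2 was the most abundant, with a mean of 821 FPKM, followed by Aldoa with 715, Ldhb with 686 and Gapdh with 523; the ranges of Pgam2 (744 to 865 FPKM), Aldoa (672 to 769) and Ldhb (634 to 743) touch their neighbours. For 24 of the 31 genes the highest library was less than 1.5 times the lowest. Libraries 217 and 243 were the highest library for 8 genes each, 1 of them labelled NPRA-/- and the other NPRA+/+, and the lowest library was most often 230, for 8 genes, or 241, for 6. These are 25.8%, 25.8%, 25.8% and 19.4% of the 31 genes, where 217 and 243 were highest for 9.67% and 12.4% and 230 and 241 lowest for 7.46% and 15.4% of all genes tested.

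**Figure D2:**
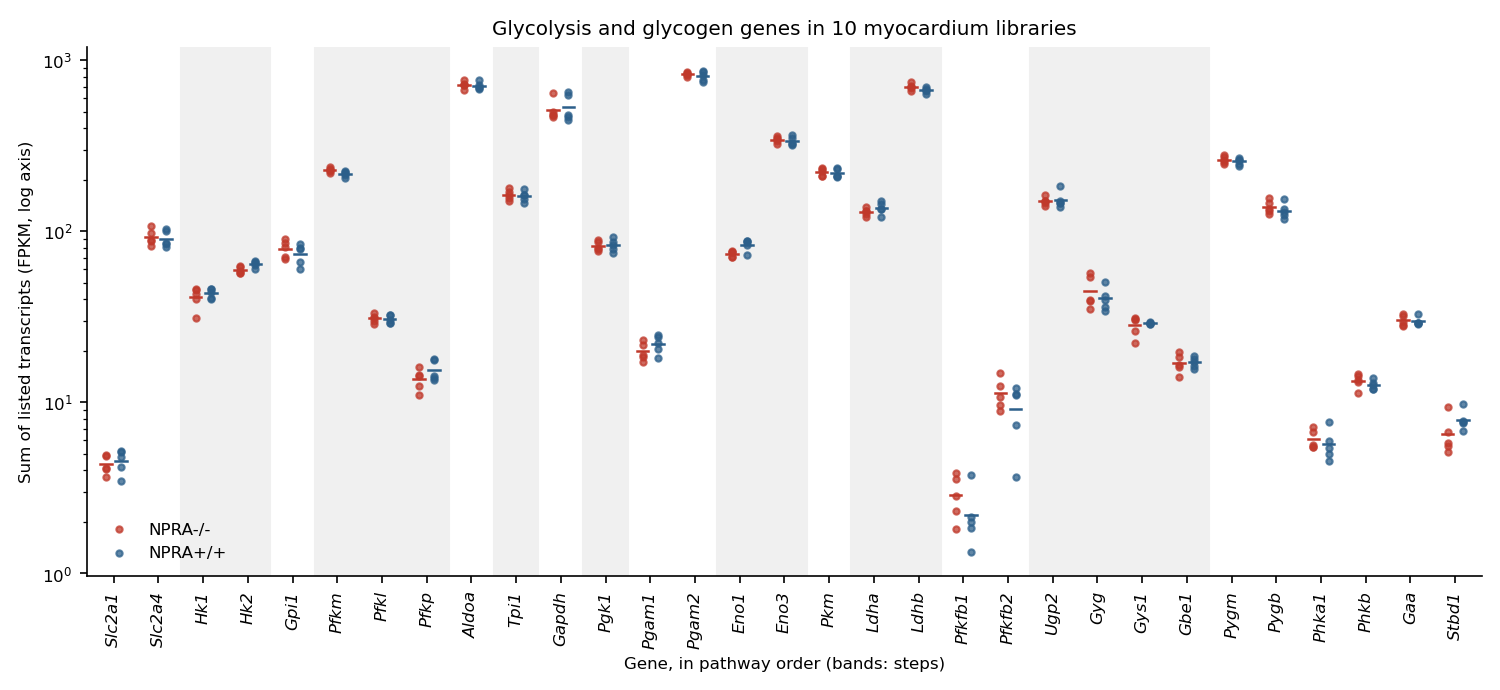
Level of each of the 31 genes, as the sum of its listed transcripts in FPKM on a log axis, with 1 point per library (red NPRA-/-, blue NPRA+/+, n = 5 each) and a line at the group mean; shaded and white bands separate the steps of the pathway. The groups overlap for every gene, and the largest scatter within a group is that of Pfkfb1 and Pfkfb2.

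Glucose enters through Slc2a4 (GLUT4, the insulin-responsive transporter) and, at a low basal rate, Slc2a1 (GLUT1). Slc2a4 stood at 107, 97.9, 88.4, 82.5 and 89.5 FPKM in the NPRA-/- libraries, against 103, 99.8, 85.3, 84.2 and 80.5 FPKM in the NPRA+/+ libraries, a log2 difference of 0.041 (SE 0.088). Slc2a1 stood at 4.35 ± 0.539 FPKM in the NPRA-/- libraries and 4.56 ± 0.747 FPKM in the NPRA+/+ libraries (SD, n = 5 each). Slc2a4 was 16.3 to 24.7 times as abundant as Slc2a1 per library, and for neither gene did the groups separate.

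Hexokinase traps glucose as glucose 6-phosphate, through Hk2, the insulin-regulated form of muscle (chromosome 6, 82725025 to 82774454, minus strand), and Hk1, the form of brain and many other tissues. Hk2 stood at 62.8, 62.1, 57.4, 56.9 and 58.6 FPKM in the NPRA-/- libraries and at 67.2, 65.7, 65.8, 63.2 and 60.4 FPKM in the NPRA+/+ libraries. All 5 NPRA-/- libraries lay below the NPRA+/+ mean of 64.5 FPKM, but the groups overlapped, since library 255 was below 217 and 227. The log2 difference of -0.11 (SE 0.049) had an unadjusted limma p of 0.0412 and an adjusted p of 0.893. Hk1 was at 41.2 ± 6.17 FPKM in the NPRA-/- libraries, where 241 was the low one, and at 43.4 ± 2.82 FPKM in the NPRA+/+ libraries; its log2 difference was -0.087, and 0.0091 without library 241.

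The next 4 steps convert glucose 6-phosphate into triose phosphates. Gpi1, glucose-6-phosphate isomerase, was at 79.3 ± 9.44 FPKM in the NPRA-/- libraries and 74.1 ± 10.1 FPKM in the NPRA+/+ libraries (SD, n = 5 each). Its range within a group, 68.6 to 90.6 FPKM over the NPRA-/- libraries and 60.4 to 84.6 FPKM over the NPRA+/+ libraries, was wider than the difference of the means. Phosphofructokinase-1, the committed step of glycolysis, has 3 subunit genes: Pfkm (muscle), Pfkl (liver) and Pfkp (platelet). Pfkm (chromosome 15, 98092589 to 98132451, plus strand) stood at 233, 237, 225, 218 and 227 FPKM in the NPRA-/- libraries and at 223, 214, 220, 206 and 224 FPKM in the NPRA+/+ libraries. All 5 NPRA-/- values were above the NPRA+/+ mean of 217 FPKM, the 2 groups overlapped, and the log2 difference was 0.069 (SE 0.039, limma unadjusted p = 0.110, adjusted p = 0.906). Pfkl was at 30.9 ± 1.76 FPKM in the NPRA-/- libraries and 30.7 ± 1.69 FPKM in the NPRA+/+ libraries. Pfkp was at 13.6 ± 1.93 FPKM in the NPRA-/- libraries and 15.4 ± 2.18 FPKM in the NPRA+/+ libraries, where 243 and 255 were the high ones with 17.9 and 17.7 FPKM. Neither difference exceeded the spread between libraries. Aldoa, the muscle aldolase, averaged 721 ± 34.3 FPKM in the NPRA-/- libraries and 709 ± 35.8 FPKM in the NPRA+/+ libraries. Tpi1, triosephosphate isomerase, averaged 164 ± 11.1 FPKM in the NPRA-/- libraries and 161 ± 11.8 FPKM in the NPRA+/+ libraries, so both overlapped almost fully.

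The energy-yielding steps begin with Gapdh, glyceraldehyde-3-phosphate dehydrogenase, a gene widely used as a reference for other genes. It stood at 477, 640, 481, 469 and 496 FPKM in the NPRA-/- libraries and at 464, 626, 477, 655 and 449 FPKM in the NPRA+/+ libraries. The 3 high values, in 227, 230 and 243, belong to both genotypes and come with a change in the listed transcript, described below. Pgk1, phosphoglycerate kinase, which makes the first ATP, was at 82.4 ± 5.49 FPKM in the NPRA-/- libraries and at 83.1 ± 6.74 FPKM in the NPRA+/+ libraries (SD, n = 5 each). Pgam2 stood at 818, 803, 857, 842 and 835 FPKM in the NPRA-/- libraries, against 771, 820, 854, 865 and 744 FPKM in the NPRA+/+ libraries, and Pgam1 at 23.3, 21.7, 18.4, 19.0 and 17.2 FPKM in the NPRA-/- libraries, against 24.2, 24.8, 22.2, 20.4 and 18.1 FPKM in the NPRA+/+ libraries. Pgam2 was 31.9 to 48.6 times as abundant as Pgam1 per library, and both genes overlapped between the groups. Gapdh, Pgk1, Pgam1, Eno1 and Ldha have processed copies in the mouse genome with near-identical sequence, so some of their fragments may have been shared with such copies when transcripts were quantified.

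Enolase is encoded by Eno3, the muscle gene (chromosome 11, 70657202 to 70662513, plus strand), and Eno1, the gene of most tissues (chromosome 4, 150236721 to 150248879, plus strand). Eno1 had the smallest p of the 31 genes. It stood at 75.6, 75.6, 76.3, 71.1 and 70.8 FPKM in the NPRA-/- libraries and at 72.9, 87.3, 82.8, 87.6 and 86.1 FPKM in the NPRA+/+ libraries. All 5 NPRA-/- libraries lay below the NPRA+/+ mean of 83.3 FPKM, and the groups overlapped only through library 228. The log2 difference was -0.17 (SE 0.058, 95% interval -0.30 to -0.042, limma unadjusted p = 0.0137), and the adjusted p of 0.850 left it uncalled; it was -0.22 with an adjusted p of 0.771 without library 228, the lowest adjusted p of any member over the 16 settings run. Eno3 stood at 362, 346, 336, 325 and 351 FPKM in the NPRA-/- libraries and at 321, 325, 353, 330 and 365 FPKM in the NPRA+/+ libraries, with no separation and a log2 difference of 0.024 (SE 0.048).

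Pkm as a whole was at 223 ± 11.1 FPKM in the NPRA-/- libraries and 219 ± 13.3 FPKM in the NPRA+/+ libraries (SD, n = 5 each). Lactate dehydrogenase consists of subunits from Ldhb, the heart gene (chromosome 6, 142490249 to 142507957, minus strand), and Ldha, the gene of skeletal muscle and many other tissues. Ldhb stood at 743, 709, 692, 662 and 696 FPKM in the NPRA-/- libraries and at 665, 634, 702, 673 and 681 FPKM in the NPRA+/+ libraries. Ldha averaged 130 ± 6.33 FPKM in the NPRA-/- libraries, with 217 the highest at 139 FPKM, and 138 ± 10.8 FPKM in the NPRA+/+ libraries, where it ran from 122 FPKM in 228 to 151 FPKM in 243 (SD, n = 5 each). The groups overlapped for both genes, with log2 differences of 0.062 (SE 0.041) for Ldhb and -0.082 (SE 0.060) for Ldha.

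Fructose 2,6-bisphosphate, the strongest activator of phosphofructokinase-1, is made and degraded by phosphofructokinase-2. Its heart form Pfkfb2 (chromosome 1, 130689182 to 130729253, minus strand) had the largest point estimate of the 31 genes. It stood at 9.69, 12.5, 14.9, 10.7 and 8.96 FPKM in the NPRA-/- libraries and at 12.2, 11.1, 11.2, 3.67 and 7.37 FPKM in the NPRA+/+ libraries. The low NPRA+/+ mean of 9.09 FPKM rested on libraries 243 and 255: the log2 difference of 0.36 (SE 0.26; limma, adjusted p = 0.914) was 0.11 without 243 and -0.034 without both. Pfkfb1, the form named for liver and muscle, was at 3.58, 2.84, 2.32, 1.83 and 3.87 FPKM in the NPRA-/- libraries and 2.13, 1.33, 2.01, 1.84 and 3.74 FPKM in the NPRA+/+ libraries, again with overlap.

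Glycogen is built from UDP-glucose. Ugp2, which makes UDP-glucose, stood at 150, 163, 141, 150 and 147 FPKM in the NPRA-/- libraries and at 146, 150, 147, 184 and 139 FPKM in the NPRA+/+ libraries, so 9 of the 10 libraries lay within 139 to 163 FPKM and 243 was above them. Gyg, the glycogenin primer, stood at 54.2, 35.3, 38.9, 39.5 and 57.1 FPKM in the NPRA-/- libraries and at 34.0, 36.2, 39.6, 50.9 and 42.1 FPKM in the NPRA+/+ libraries. The high libraries of Gyg, 217, 241 and 243, belong to both genotypes. Gys1, muscle glycogen synthase, was at 28.2 ± 3.90 FPKM in the NPRA-/- libraries, with low values of 22.3 in 231 and 26.0 in 240, and at 29.0 ± 0.256 FPKM in the NPRA+/+ libraries. Gbe1, the branching enzyme, was at 17.0 ± 2.20 FPKM in the NPRA-/- libraries and 17.1 ± 1.14 FPKM in the NPRA+/+ libraries. None of the 4 synthesis genes differed beyond its spread, and their sum was 240 ± 14.6 FPKM in the NPRA-/- libraries and 240 ± 22.5 FPKM in the NPRA+/+ libraries (SD, n = 5 each).

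Glycogen is opened by phosphorylase, which phosphorylase kinase switches on, and a smaller part is degraded in lysosomes. Pygm, muscle phosphorylase, stood at 256, 261, 246, 271 and 279 FPKM in the NPRA-/- libraries and at 260, 242, 262, 249 and 269 FPKM in the NPRA+/+ libraries. Pygb, brain phosphorylase, which the heart also uses, averaged 139 ± 12.1 FPKM in the NPRA-/- libraries and 132 ± 14.0 FPKM in the NPRA+/+ libraries (SD, n = 5 each). Both genes overlapped between groups. The phosphorylase kinase subunits were far lower: Phka1, the muscle alpha subunit, was at 6.10 ± 0.801 FPKM in the NPRA-/- libraries and 5.71 ± 1.24 FPKM in the NPRA+/+ libraries, and Phkb, the beta subunit, at 13.4 ± 1.28 FPKM in the NPRA-/- libraries and 12.7 ± 0.752 FPKM in the NPRA+/+ libraries. Gaa, the lysosomal acid glucosidase that is lacking in Pompe disease, was at 30.1 ± 2.20 FPKM in the NPRA-/- libraries and 29.7 ± 1.75 FPKM in the NPRA+/+ libraries. Stbd1, which tethers glycogen to membranes and brings it to lysosomes (chromosome 5, 92603041 to 92606579, plus strand), stood at 9.34, 6.69, 5.82, 5.56 and 5.16 FPKM in the NPRA-/- libraries and at 7.75, 7.67, 7.58, 9.85 and 6.80 FPKM in the NPRA+/+ libraries. It was below the NPRA+/+ mean of 7.93 FPKM in 4 of the 5 NPRA-/- libraries and above it in 217; its log2 difference of -0.27 (SE 0.14) had an unadjusted limma p of 0.0872 and an adjusted p of 0.906.

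The muscle or heart paralog was then set against its partners within each library, as a share that does not depend on the scaling of the library. In every library the muscle or heart gene made up more than the other members of its pair or trio together, from 55.5% for Hk2 in 240 to 98.0% for Pgam2 in 241. Its mean share was higher in NPRA-/- libraries in 6 of the 8 comparisons and lower for Hk2 and Pygm. None of the 8 passed the two-sided exact permutation test over all splits of 5 and 5 libraries after adjustment over the 8; the smallest unadjusted p this test can give is 0.00794.

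The share of Eno3 was the one with no overlap between the groups. It was 82.7%, 82.1%, 81.5%, 82.1% and 83.2% in the NPRA-/- libraries and 81.5%, 78.8%, 81.0%, 79.0% and 80.9% in the NPRA+/+ libraries. Libraries 231 and 228 meet at 81.5% after rounding, so the groups touch rather than stand apart. The means were 82.3% ± 0.666 in NPRA-/- libraries and 80.2% ± 1.22 in NPRA+/+ libraries (SD, n = 5 each), a difference of 2.07 percentage points with the smallest exact p the design allows, 0.00794, and an adjusted p of 0.0635. Without library 228 the difference was 2.38 points and the adjusted exact p 0.0317, and 228 was the only library whose omission brought this share past the threshold. The unadjusted exact p of Eno3 was 0.00794 there too. Its adjusted p fell because the share of Ldhb also had an exact p of 0.00794 without 228. A share alone at this p is adjusted to 0.0635, so the pass did not come from a smaller p of Eno3.

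Pfkm and Ldhb had differences of the same sign. The share of Pfkm was 83.5%, 83.3%, 84.6%, 82.8% and 84.1% in the NPRA-/- libraries and 82.9%, 82.2%, 83.2%, 81.5% and 82.7% in the NPRA+/+ libraries, a difference of 1.17 points (exact p = 0.0317, adjusted p = 0.127). The share of Ldhb was 84.2%, 85.3%, 84.1%, 83.9% and 84.1% in the NPRA-/- libraries and 84.5%, 81.4%, 83.7%, 81.7% and 83.3% in the NPRA+/+ libraries, a difference of 1.40 points (exact p = 0.0635, adjusted p = 0.169; adjusted p = 0.0317 without library 228). With the most abundant transcript alone the Ldhb difference was 0.455 points. For Ldha that setting counted Ldha-201 in every library. In 240 and 230 this transcript was at 3.50 and 5.10 FPKM, and Ldha-210, which was left out, led at 78.5 and 94.4 FPKM. The value of 0.455 points therefore includes this switch of transcript, and its part in the smaller difference was not tested. The NPRA-/- libraries were tightly grouped in Ldhb, and the NPRA+/+ libraries spread downwards from the same level. For the other 5 shares the adjusted exact p was 0.381 or more. The shares of Slc2a4, Hk2, Pgam2, Pygm and Pfkfb2 differed by 0.348, -0.463, 0.297, -0.681 and 0.864 points, and Pfkfb2 varied most, from 69.8% to 86.6% over the NPRA-/- libraries and from 66.3% to 89.3% over the NPRA+/+ libraries.

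**Figure D3:**
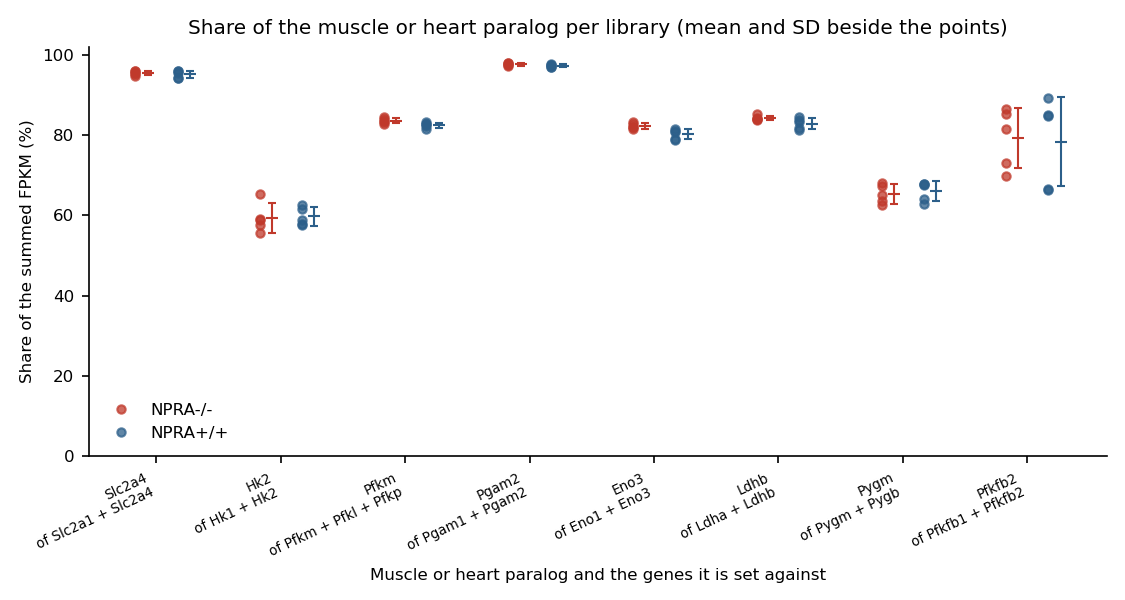
Share of the muscle or heart paralog in the summed FPKM of its pair or trio, in percent, with 1 point per library (red NPRA-/-, blue NPRA+/+) and the mean with SD beside the points (n = 5 each). The shares of Eno3, Pfkm and Ldhb sit 1.17 to 2.07 points higher in NPRA-/- libraries, differences that are small on the full axis, and the widest scatter is that of Pfkfb2.

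The direction of cell type markers was compared between the groups as well, and their relation to these shares library by library was not tested. In bulk RNA fewer cells of a type and less RNA per cell cannot be told apart. All 9 endothelial, all 8 fibroblast, all 8 smooth muscle and pericyte and all 8 macrophage markers were lower in NPRA-/- libraries and 7 of 8 cardiomyocyte markers were higher, although no marker was called (3, 5, 2 and 4 of the non-muscle markers, in that order of lists, and 0 of the cardiomyocyte markers had an unadjusted limma p under 0.05). Over all genes tested 39.4% were higher, 4.13% were lower with such a p and 1.38% were higher with such a p. The marker counts are for the values as deposited. Median-of-ratios scaling moved the members' median log2 difference from 0.024 to 0.059. The smallest differences of these non-muscle markers were those of Kdr (-0.0099), Tek (-0.034) and Rgs5 (-0.047). Whether the counts hold under that scaling was not tested. The summed macrophage level was 220 to 240 FPKM in NPRA-/- libraries and 245 to 280 FPKM in NPRA+/+ libraries, without overlap. Lyz2 was its largest part, at 112 to 124 FPKM in NPRA-/- libraries and 122 to 149 FPKM in NPRA+/+ libraries. Of the macrophage markers only C1qa did not overlap, at 15.9 to 21.0 FPKM in NPRA-/- libraries and 21.3 to 24.1 FPKM in NPRA+/+ libraries. The other sums overlapped: endothelial markers summed to 252 to 317 FPKM in NPRA-/- libraries and 297 to 328 FPKM in NPRA+/+ libraries, and fibroblast markers to 355 to 425 FPKM in NPRA-/- libraries and 378 to 501 FPKM in NPRA+/+ libraries. Smooth muscle and pericyte markers summed to 327 to 411 FPKM in NPRA-/- libraries and 324 to 550 FPKM in NPRA+/+ libraries, and cardiomyocyte markers to 24886 to 29217 FPKM in NPRA-/- libraries and 24950 to 27599 FPKM in NPRA+/+ libraries. None of the markers of these 5 lists was at 0 in any library. The 5 erythroid markers in the table were all higher in NPRA-/- libraries, with sums of 946 to 1438 FPKM there and 768 to 1392 FPKM in NPRA+/+ libraries. Fat markers, 1 higher and 4 lower, summed to 690 to 789 FPKM in NPRA-/- libraries and 664 to 860 FPKM in NPRA+/+ libraries. Most of this sum was Fabp4, at 666 to 765 FPKM in NPRA-/- libraries and 648 to 823 FPKM in NPRA+/+ libraries. Adipoq was at most 2.22 FPKM in any library, so the sum is not a measure of fat content. The part of cell make-up in the enolase, phosphofructokinase and lactate dehydrogenase shares was not tested.

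**Figure D4:**
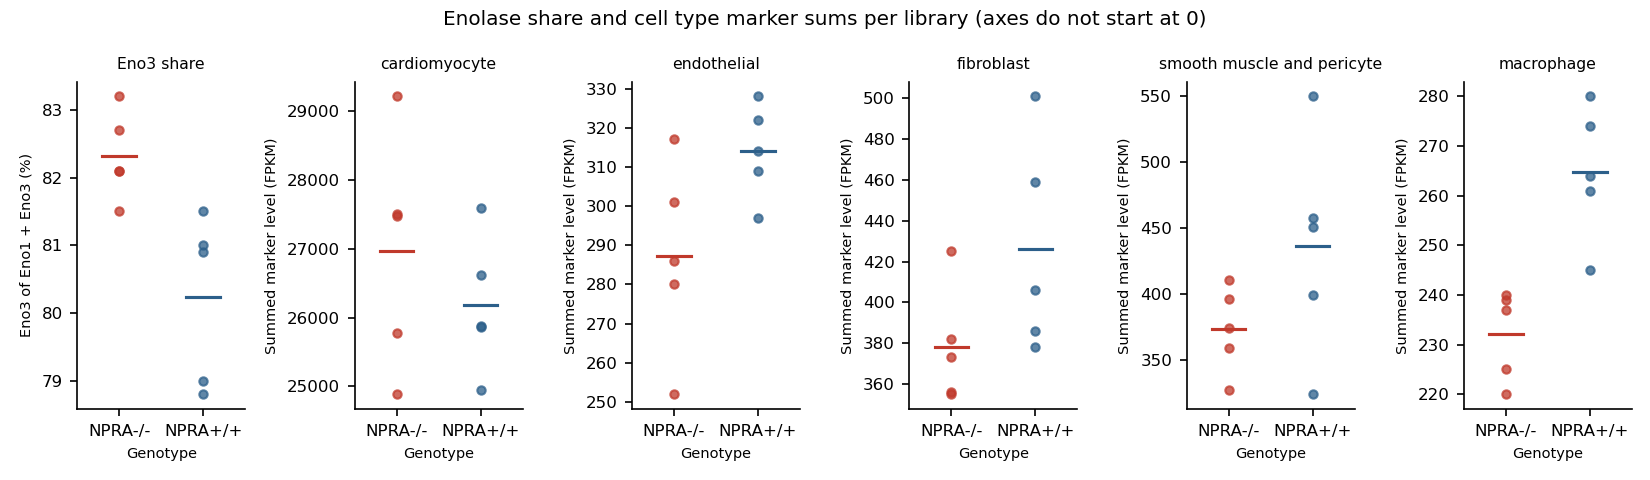
Share of Eno3 among both enolase genes in percent, and summed level of 5 marker lists in FPKM, with 1 point per library and a line at the group mean (NPRA-/- left, NPRA+/+ right, n = 5 each; axes do not start at 0). The macrophage sums of the groups do not overlap, the Eno3 shares meet at 81.5%, and the other sums overlap.

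At the level of transcripts 0 of the 78 that passed the filter were called, against 0.0283% of all 17641 transcripts tested, and 1 of the 78, the only listed transcript of Hk2, had an unadjusted p under 0.05, against 5.50% of all. Among the 22 members with 2 or more listed transcripts, 7 had a most abundant transcript that differed between libraries: Gapdh, Eno1, Ldha, Pfkfb1, Pfkfb2, Gyg and Phka1. For none of the 7 did the leading transcript separate the genotypes.

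Gapdh showed the switch most plainly. Gapdh-201 (ENSMUST00000073605.14, 1272 bases) stood at 503 FPKM in 227, 472 in 230 and 490 in 243 and was listed at 0 in the other 7 libraries, where Gapdh-203 (ENSMUST00000118875.7, 1420 bases) stood at 444 to 490 FPKM instead of the 134 to 161 FPKM it had in those 3. Both transcripts have the same coding sequence of 999 bases. The summed level of Gapdh was 626 to 655 FPKM in the 3 libraries with Gapdh-201 and 449 to 496 FPKM in the 7 without it, so the level of this gene moved with the transcript to which its fragments were assigned. Ldha-210 (ENSMUST00000209984.1) in the same way stood at 78.5 FPKM in 240 and 94.4 FPKM in 230 and at 4.87 to 6.61 FPKM elsewhere, and Ldha-201 at 3.50 and 5.10 FPKM in those 2 libraries and 75 to 95 FPKM elsewhere. Here the gene sums of these 2 libraries fell inside the 122 to 151 FPKM of the other 8. Gyg-203 led in 217, 241 and 228, at 33.1 to 55.8 FPKM, and Gyg-204 led in the other 7, at 20.9 to 30.8 FPKM.

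Eno1 bears on the enolase result directly. Eno1-202 (ENSMUST00000080926.12, 12 exons, coding length 1302 bases) stood at 40.0, 15.2, 12.5, 8.06 and 47.3 FPKM in the NPRA-/- libraries and at 6.97, 18.0, 8.50, 7.73 and 9.43 FPKM in the NPRA+/+ libraries. Eno1-201 (ENSMUST00000080149.5, 8 exons, coding length 1098 bases) stood at 13.8, 39.7, 42.7, 43.8 and 6.76 FPKM in the NPRA-/- libraries and at 50, 44.5, 50.5, 53.5 and 45.9 FPKM in the NPRA+/+ libraries. Eno1-202 thus led in 217 and 241 only, and both are labelled NPRA-/-. The limma log2 differences were 0.98 (SE 0.47, adjusted p = 0.903) for Eno1-202 and -1.01 (SE 0.46, adjusted p = 0.900) for Eno1-201. Without library 241 they were 0.68 for Eno1-202 and -0.59 for Eno1-201. The sum of the gene was 75.6 and 70.8 FPKM in 217 and 241 and 71.1 to 76.3 FPKM in the other NPRA-/- libraries. No NPRA+/+ library had Eno1-202 in the lead. The part of the switch in the difference of the gene was not tested. The other listed transcript, Eno1-205 (773 bases, 7 exons), stood at 21.7, 20.7, 21.2, 19.2 and 16.7 FPKM in the NPRA-/- libraries. In the NPRA+/+ libraries it stood at 16.0, 24.8, 23.8, 26.4 and 30.8 FPKM, so 228 was the lowest. The group means were 19.9 and 24.4 FPKM for Eno1-205 and 73.9 and 83.3 FPKM for the gene. The part of Eno1-205 in the difference of the gene was not tested. Counting only the transcript of each gene with the highest mean over all libraries gave an Eno3 share 6.67 points higher in NPRA-/- libraries. The adjusted exact p was 0.127. For Eno1 that transcript was Eno1-201, which was not the leading one in 217 and 241, at 13.8 and 6.76 FPKM.

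Among members with 2 or more listed transcripts, the 4 other transcripts with the smallest p also stayed far from the threshold. Their adjusted limma p was 0.903 each. They were ENSMUST00000210631.1 of Ldha (log2 difference 0.89, SE 0.42), ENSMUST00000210968.1 of Ldha (-1.13, SE 0.57), ENSMUST00000112713.2 of Pfkfb1 (0.41, SE 0.21) and ENSMUST00000051226.6 of Pfkm (0.068, SE 0.036). Leaving out 1 library in turn gave differences of 0.63 to 1.08, -1.53 to -0.78, 0.28 to 0.50 and 0.049 to 0.084 in the same order. The estimates of the 2 Ldha transcripts have opposite signs, and neither transcript was called.

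**Figure D5:**
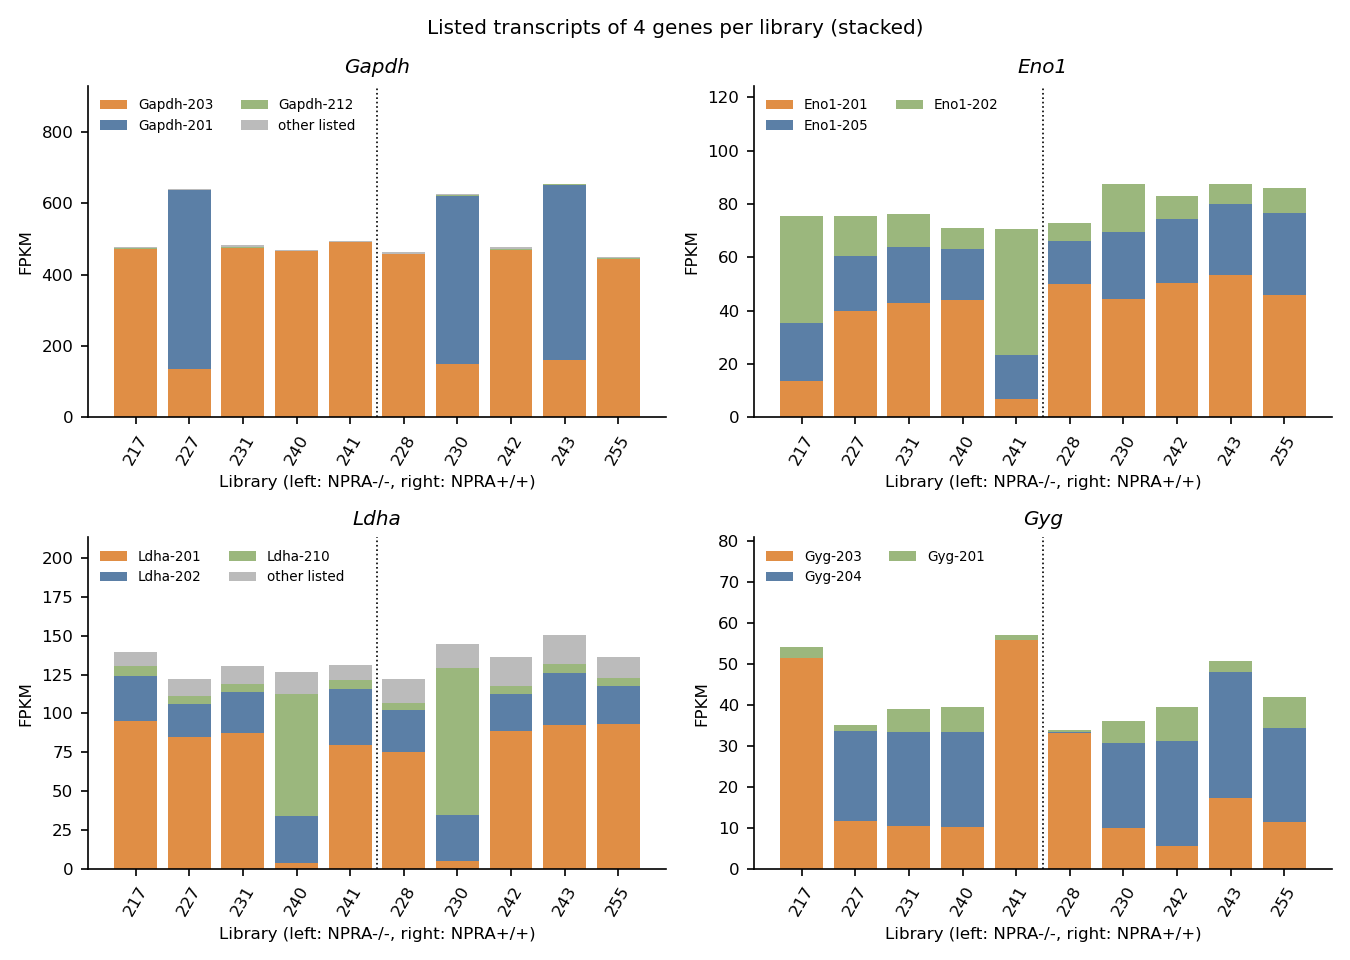
Listed transcripts of Gapdh, Eno1, Ldha and Gyg in FPKM, stacked for each library, with NPRA-/- libraries left and NPRA+/+ libraries right of the dotted line. Gapdh-201 is present in 227, 230 and 243 only, where the bar is taller, while Ldha-210, Eno1-202 and Gyg-203 replace another transcript in 2 or 3 libraries each.

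The wider pathway gave the same picture. Of 102 further symbols in 5 lists (other glycolysis, other glycogen metabolism, the fate of pyruvate and lactate, side branches, and regulators of glucose use) 88 were in the table and 84 were tested; 41 were higher and 43 lower in NPRA-/- libraries, 0 were called, and 5 had an unadjusted p under 0.05, where over all genes 39.4% were higher, 0.00929% were called and 5.52% had such a p. Leaving out 1 library in turn gave 1 to 8 genes with such a p. With median-of-ratios scaling the split was 51 higher and 33 lower. The list medians lay between -0.036 (side branches) and 0.023 (pyruvate and lactate fate) on the log2 scale, around the -0.029 of all genes.

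Where pyruvate leaves glycolysis, Pdk1, a kinase that switches off pyruvate dehydrogenase, stood at 29.0, 27.5, 25.2, 25.3 and 25.3 FPKM in the NPRA-/- libraries and at 25.6, 22.2, 22.7, 24.4 and 22.1 FPKM in the NPRA+/+ libraries. Its log2 difference was 0.17 (SE 0.063, limma unadjusted p = 0.0210, adjusted p = 0.867), and library 228 of the NPRA+/+ group overlapped the NPRA-/- values. Pdk4, the isoform raised by fasting and fatty acids, ranged from 98.4 to 312 FPKM over the NPRA-/- libraries and from 85.9 to 217 FPKM over the NPRA+/+ libraries, a spread within groups that a log2 difference of 0.49 (SE 0.32) did not exceed; the difference was 0.25 without library 227 and 0.72 without library 255. Ldhd, the mitochondrial D-lactate dehydrogenase, was at 12.0 ± 2.46 FPKM in the NPRA-/- libraries and 8.85 ± 1.26 FPKM in the NPRA+/+ libraries (SD, n = 5 each; limma unadjusted p = 0.0213, adjusted p = 0.867).

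In the side branches, Pgd of the pentose phosphate pathway stood at 5.76, 6.97, 6.33, 6.13 and 6.66 FPKM in the NPRA-/- libraries and at 6.20, 7.85, 8.16, 8.50 and 8.14 FPKM in the NPRA+/+ libraries, so that 4 of the 5 NPRA+/+ libraries were above all NPRA-/- ones. Its log2 difference was -0.25 (SE 0.088, limma unadjusted p = 0.0178, adjusted p = 0.867). Gfpt2, which starts hexosamine synthesis, was at 4.84 ± 0.498 FPKM in the NPRA-/- libraries and 5.95 ± 0.798 FPKM in the NPRA+/+ libraries, a log2 difference of -0.25 (SE 0.097; limma, adjusted p = 0.893). The endothelial, fibroblast, smooth muscle and pericyte, and macrophage markers described above were also all lower on average in NPRA-/- libraries, with the values as deposited. The part of these cell types in the differences of Pgd, Gfpt2 and Eno1 was not tested. Among other genes of glycogen metabolism, Ppp1r3a, which anchors a phosphatase to glycogen, and Gsk3b, a kinase that inhibits glycogen synthase, had log2 differences of -0.14 (SE 0.080) and -0.17 (SE 0.095). The smallest p-values among the regulators were those of Tbc1d4, which holds back GLUT4 until insulin acts, with a difference of 0.39 (SE 0.22), and Mef2a, a muscle transcription factor, with -0.37 (SE 0.21). The difference of Tbc1d4 was 0.21 without library 230, and that of Mef2a was -0.58 without library 243. All 4 had an adjusted limma p of 0.906.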

How the data were processed

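Per the labels' protocols, poly(A) RNA of frozen myocardium was turned into strand-specific dUTP libraries and sequenced from both ends (Illumina HiSeq). The submitters' processing notes name cutadapt, HISAT2, StringTie and the build mm10; the sources used here give no versions or settings. The deposited values were taken as FPKM, 1 per transcript and library, computed by the authors before deposit; the table does not name the unit. No read counts were recovered, so the depth is unknown and precision comes from the spread between libraries alone. An exact 0 may be a failed estimate. Nothing in the labels says that libraries of a group were separate preparations beyond their mouse numbers, so p-values measure the spread between these libraries. All 22157 transcripts averaged 0.5 FPKM or more in 1 genotype group or both; this held for the grouping by genotype and for no other grouping into 5 and 5, so the table had been selected on these groups.

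Transcripts were matched to GENCODE vM21 (22107 matched, 21011 with the same version, 50 unmatched) and summed per symbol. Values were used as log2(FPKM + 1), which understates differences of low genes, for 10764 genes and 17641 transcripts with a mean of at least 1 FPKM in 1 group. The genotype test was limma 3.58.1 in R 4.3.3 (empirical Bayes with trend, no covariate), with Benjamini-Hochberg adjustment at 0.05, after a check on simulated data. Each of the 8 paralog shares was tested by exact permutation, two-sided. The named genes were all members and the 2 with the smallest p of each other list. The named transcripts were the 6 with the smallest p among members with 2 or more listed transcripts. One gene that this rule picks is not reported here. Members, lists and marker genes were chosen with earlier results of these data known. Alternatives were a pseudocount of 0.1, no filter, equal sums, median-of-ratios factors, the most abundant transcript of each gene, each library left out in turn and, chosen after seeing the data, libraries 243 and 255 left out together. The most abundant transcript in that setting was the one with the highest mean over all 10 libraries. In some libraries another transcript of the gene led. Figures used Python 3.11.15 with pandas 2.3.3, numpy 2.4.6 and matplotlib 3.10.9. Circular RNA was not analysed here.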

Additional observations from a re-analysis of the deposited data

Results flagged for a closer look

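In 8 of the 110 groups of 5 libraries examined, the highest or lowest library stood apart from the other 4 by a gap past Dixon's 95% critical value for 5 values; chance gives about 1 in 20 such groups. Gapdh was at 640 FPKM in NPRA-/- library 227, in which Gapdh-201 led, and at 469 to 496 FPKM in the other NPRA-/- libraries. The share of Ldhb was 85.3% in NPRA-/- library 227 and 83.9% to 84.2% in the other 4. Ugp2 was at 184 FPKM in NPRA+/+ library 243 and at 139 to 150 FPKM in the other NPRA+/+ libraries. Mef2a was at 17.6 FPKM in NPRA+/+ library 243 and at 34.3 to 40.8 FPKM in the others. Gaa was at 32.9 FPKM in NPRA+/+ library 242 and at 28.8 to 29.1 FPKM in the others. Pdk4 was at 217 FPKM in NPRA+/+ library 255 and at 85.9 to 105 FPKM in the others. Pgd was at 6.20 FPKM in NPRA+/+ library 228 and at 7.85 to 8.50 FPKM in the others. The Eno1 transcript ENSMUST00000080926.12 was at 18.0 FPKM in NPRA+/+ library 230 and at 6.97 to 9.43 FPKM in the others.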

How the results depend on the processing

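No member was called under any of the 16 settings, and 19 of the 31 kept the sign of their difference in all of them. With median-of-ratios scaling Pgk1 was at 0.024, Gbe1 at 0.013 and Ugp2 at 0.012 (log2 differences), and with equal sums Pfkl was at -0.0018. With the most abundant transcript alone Gapdh was at 0.31, Pfkfb2 at -0.17, Ugp2 at 0.037, Gaa at -0.12 and Mef2a at 0.47, and the share differences were 0.193 points for Hk2 and -14.0 for Pfkfb2. Without 243 and 255 Slc2a4 was at -0.045, Pfkl at -0.036, Pgk1 at 0.060, Pfkfb2 at -0.034, Ugp2 at 0.021 and Gaa at -0.0067, and the shares at 0.459 points for Pygm and -7.10 for Pfkfb2. Leaving out 1 library in turn gave -0.012 to 0.088 for Slc2a4, -0.13 to 0.0091 for Hk1, -0.017 to 0.036 for Pfkl, -9.0e-05 to 0.052 for Aldoa, -0.0093 to 0.059 for Tpi1, -0.13 to 0.028 for Gapdh, -0.046 to 0.029 for Pgk1, -0.090 to 0.028 for Gys1, -0.074 to 0.043 for Gbe1, -0.057 to 0.044 for Ugp2 and -0.014 to 0.053 for Gaa. Share differences ran from 0.110 to 0.582 points for Slc2a4, -1.98 to 0.491 for Hk2, 0.913 to 1.38 for Pfkm, 0.196 to 0.402 for Pgam2, 1.72 to 2.38 for Eno3, 1.02 to 1.79 for Ldhb, -1.50 to 0.0165 for Pygm and -2.16 to 3.58 for Pfkfb2; Eno3 and Ldhb passed the adjusted threshold without 228 only. The median log2 difference over the members ran from -0.012 to 0.033 when 1 library was left out and was 0.059 with median-of-ratios scaling and 0.0018 without 243 and 255, and the members with an unadjusted p under 0.05 numbered 1 to 3 when 1 library was left out. For the other pathway genes that number was 1 to 8, against 5 with all libraries, and 3 without 243 and 255. The cause of these changes was not tested, and with an unknown depth no counting error can be set beside them. No paired analysis was possible because the groups share no mouse number.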
